A study of Mus musculus with 74 samples.

Results

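Peaks of KRAB zinc finger proteins (KRAB-ZFPs) that lay in the untranslated region (UTR) of a messenger RNA gene, outside coding sequence and more than 1 kb from every annotated transcript start, were examined in mm9. A peak was a 200 bp window set around its summit by the authors, and it was taken as a UTR peak when the midpoint of that window met these conditions in the gencode vM1 annotation. There were 458 such peaks among 53011 peaks of 67 KRAB-ZFPs, or 0.864%. They lay in UTRs of 405 genes, with 448 peaks in 3′ UTRs, 9 in 5′ UTRs and 1, in Recql5, whose end could not be assigned.

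ChIP-seq, the sequencing of chromatin pulled down with an antibody, here against FLAG or HA, gave the peaks. In F9 embryonal carcinoma (EC) cells, a mouse tumour-derived stem cell line, 18 KRAB-ZFPs were tagged with FLAG at the N terminus and 30 with HA, and for 10 more with HA the reads were mapped with Bowtie2. The remaining 9 KRAB-ZFPs carried an HA tag in B6 embryonic stem (ES) cells. These 4 sets are called setups here. Every tagged protein was overexpressed from an integrated vector, so the peaks describe binding at raised protein levels, and each KRAB-ZFP had 1 sample and therefore no replicate error. The labels also list 6 input or control ChIP samples. These have no peaks of their own in the table, and the background enters only through the authors' peak calling.

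KRAB-ZFPs bind DNA through arrays of zinc fingers and recruit the corepressor KAP1 (Trim28) through the KRAB domain, which brings in the histone H3K9 methyltransferase SETDB1 and leads to heterochromatin. They are best known for silencing retrotransposons, many of which are present in near-identical copies. A 3′ UTR is transcribed but not translated and carries sites for microRNAs and RNA-binding proteins, while in the genome it is also ordinary DNA in which retrotransposons can insert.

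The sequences under the UTR peaks are shown first for 5 KRAB-ZFPs, because they show which kinds of DNA were reached inside UTRs. For each KRAB-ZFP, the leading word was the run of 8 bases with the largest excess in its peaks outside these UTRs over windows 1 kb to either side, so that the UTR peaks did not enter the choice. Each line gives the gene, the place in mm9, the strand read and 30 bases from 5′ to 3′, with the leading word in capitals. The genes shown are those of highest fold enrichment among the UTR peaks that hold the word.

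For Gm13152 the word was AGAGGGTC. It was present in 7 of 57 UTR peaks (12.3%, 95% Wilson interval 6.08% to 23.2%), in 0 of 114 flanking windows and in 21.0% of its other peaks. All 4 genes shown carry it against the direction of the gene.
Rad1, chr15:10426267-10426296, minus strand: caaaggggcccAGAGGGTCtgcggcatcta
Tmem167, chr13:90248161-90248190, minus strand: caaaagggcccAGAGGGTCtgcggcaataa
Sin3b, chr8:75281910-75281939, minus strand: aagggaggcccAGAGGGTCtgaggcggctt
Dennd4c, chr4:86475971-86476000, minus strand: caaaggggcccAGAGGGTCtgtggcactgg
The likeness reached beyond the word. Of the 22 bases beside it, 18 matched between Rad1 and Tmem167 and 17 between Rad1 and Dennd4c, against 11 between Tmem167 and Sin3b.

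For Gm13154 the word was ATTGCTGC, found in 12 of 28 UTR peaks (42.9%, interval 26.5% to 60.9%), in 1 of 56 flanking windows and in 37.2% of its other peaks. It ran with the gene in 6 UTR peaks and against it in 6.
Rpp14, chr14:8923662-8923691, minus strand: gctctacttgcATTGCTGCagttatacttg
Setd7, chr3:51321050-51321079, minus strand: ctgaggcttgcATTGCTGCagcggggcagc
Hhex, chr19:37514781-37514810, plus strand: tggcatcttacATTGCTGCcttaactccaa
Znrf3, chr11:5179049-5179078, plus strand: cctcctgttccATTGCTGCctacaggtgtg
Here the surroundings differed between genes, with 6 to 9 of the 22 bases beside the word matching in the 6 pairs.

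For Zfp961 the word was GGGCGCCA, in 6 of 17 UTR peaks (35.3%, interval 17.3% to 58.7%), 1 of 34 flanking windows and 47.2% of its other peaks. Its reverse complement is TGGCGCCC.
Camta1, chr4:150433856-150433885, plus strand: gaccccccgttGGGCGCCAactactgtgtg
Adarb2, chr13:8766290-8766319, plus strand: ggtccctgttcGGGCGCCAaaatgttgcgg
Jph3, chr8:124314220-124314249, minus strand: cgtcctccgtgGGGCGCCActgccagggac
Csf1, chr3:107548690-107548719, plus strand: tgtccagggctGGGCGCCAcattttcagag
Again 6 to 9 of the 22 surrounding bases matched between these genes.

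For Gm21082 the word was AGGCAGAG, in 6 of 11 UTR peaks (54.5%, interval 28.0% to 78.7%), 2 of 22 flanking windows and 90.8% of its other peaks.
Inadl, chr4:98121201-98121230, minus strand: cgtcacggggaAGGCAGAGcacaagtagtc
2310061C15Rik, chr8:119420266-119420295, minus strand: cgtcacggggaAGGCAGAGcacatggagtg
A430078G23Rik, chr8:3390117-3390146, minus strand: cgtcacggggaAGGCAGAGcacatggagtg
Zfp706, chr15:36926984-36927013, plus strand: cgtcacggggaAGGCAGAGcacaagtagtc
These are copies of 1 repeated sequence. All 22 surrounding bases matched between Inadl and Zfp706 and between 2310061C15Rik and A430078G23Rik, 19 matched in the other 4 pairs, and the 24-base words of the 4 windows occurred between 1890 and 2148 times in the genome (median per window).

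For Gm13225 the word was a run of A, AAAAAAAA, read on either strand. It was present in 48 of 60 UTR peaks (80.0%, interval 68.2% to 88.2%), in 16 of 120 flanking windows and in 74.2% of its other peaks.
Zfp697, chr3:98234815-98234844, minus strand: atgtgcatttcAAAAAAAAaaaaggaaaaa
Gcnt3, chr9:69880258-69880287, plus strand: aaaaaaaaaaaAAAAAAAAggaagttgctt
Mfsd11, chr11:116736939-116736968, plus strand: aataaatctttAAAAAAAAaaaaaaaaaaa
Hivep3, chr4:119807551-119807580, minus strand: tcctactcttgAAAAAAAAaaaaaggataa
The run of A lay on the strand opposite to the gene in 29 of these UTR peaks, on the gene's own strand in 18 and on both in 1.

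UTR peaks were about as frequent as UTR sequence. The rule could reach 25.4 Mb of UTR, which is 0.992% of the 2559 Mb of sequenced bases. The share of peaks in these UTRs, averaged over KRAB-ZFPs, was 0.980% ± 0.908 (SD, n = 67). It differed from the share of the genome by -0.0122 percentage points, which was well within the spread between KRAB-ZFPs (two-sided sign-flip permutation test over KRAB-ZFPs, 100000 resamples, p = 0.914). The share lay above that of the genome in 29 KRAB-ZFPs and below it in 38. This mean has no firm direction, since it turned to above the genome's share by 0.262 percentage points when only single-copy peaks were counted (permutation p = 0.115).

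For some KRAB-ZFPs the counting error did not cover the genome's share. The 95% Wilson intervals, which cover counting error only, lay wholly above 0.992% in 5 KRAB-ZFPs and wholly below in 6. Above were Gm13225, with 60 UTR peaks of 3570 (1.68%, interval 1.31% to 2.16%), Gm13154, with 28 of 1561 (1.79%, 1.24% to 2.58%), and Zfp661, with 18 of 1065 (1.69%, 1.07% to 2.66%). Gm13150, with 5 of 98 (5.10%, 2.20% to 11.4%), and EtOHi1, with 3 of 67 (4.48%, 1.53% to 12.4%), rest on few peaks. Below were Gm14406, with 2 of 5685 (0.0352%, 0.00965% to 0.128%), Gm8898, with 1 of 1517 (0.0659%), Zfp617, with 1 of 764 (0.131%), Gm21082, with 11 of 2211 (0.498%), Gm14419, with 22 of 3906 (0.563%), and Gm13157, with 0 of 443, which allows a share of up to 0.677% as the limit of 3 counts used here for a count of 0 (Wilson upper bound 0.860%). These 67 intervals were not corrected for their number. The shares are over all peaks and all sequence, including those within 1 kb of starts, which the rule cannot count. Among peaks beyond 1 kb alone, the UTR share was 2.20% of 2592 for Gm13152, against 1.10% of all its peaks. For Zfp46 it was 1.80% of 167, against 1.00%. Over all peaks the intervals of both held the genome's share. The share of reachable UTR in sequence beyond 1 kb was not computed, so the values beyond 1 kb have no like baseline here.

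**Figure D1:**
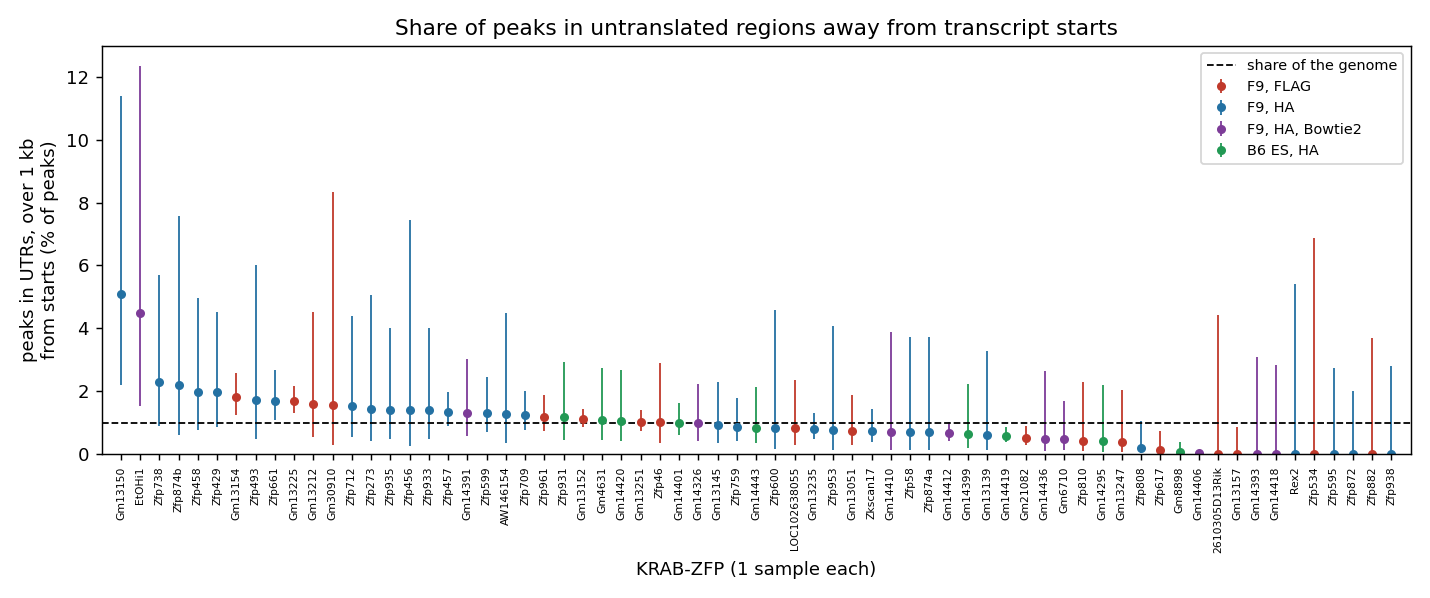
Percent of each KRAB-ZFP's peaks that lay in UTRs more than 1 kb from transcript starts, with 95% Wilson intervals, coloured by setup, for 67 KRAB-ZFPs of 1 sample each; the dashed line is the share of the genome (0.992%). Most intervals cross the line, and the 2 highest points, Gm13150 at 5.10% and EtOHi1 at 4.48%, have the widest intervals.

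In 10 KRAB-ZFPs no peak met the rule. Apart from Gm13157, these had between 52 and 188 peaks, and a count of 0 there allows shares of up to 5.77% for Zfp534 and 1.60% for Zfp872 by the same limit of 3 counts (Wilson upper bounds 6.88% and 2.00%), so absence of UTR binding could not be shown at these peak numbers. A further 37 KRAB-ZFPs had 1 to 4 UTR peaks, 7 had 5 to 9, and 13 had at least 10. Those 13 held 332 of the 458 peaks, and the first 5 of them (Gm13225, Gm13152, Gm13251, Gm13154 and Zfp457) held 202, or 44.1%.

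The share was compared between epitopes in F9 cells. It averaged 0.767% ± 0.626 (SD, n = 18) for FLAG and 1.20% ± 0.982 (SD, n = 30) for HA, a difference of -0.436 percentage points (p = 0.0948 by a two-sided permutation test with 100000 resamples), which misses the threshold of 0.05. The tags were on different proteins, so tag and protein cannot be told apart. With N-terminal tags alone, 18 against 7 KRAB-ZFPs, the difference was -0.145 (exact permutation p = 0.594). The 10 KRAB-ZFPs mapped with Bowtie2 had a median of 0.559% (0% to 4.48%). The 9 in ES cells had a median of 0.833% (0.0659% to 1.16%), so the setups overlapped.

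Within each KRAB-ZFP, UTR peaks were compared with its other peaks more than 1 kb from every transcript start, in the 13 KRAB-ZFPs with at least 10 UTR peaks. UTR peaks were less often in multi-copy sequence, meaning windows whose 24-base words have a median of at least 10 exact copies in mm9. The multi-copy share averaged 7.20% of UTR peaks and 27.5% of the other peaks, a difference of -20.3 percentage points ± 24.2 (SD, n = 13). It was lower in all 13 KRAB-ZFPs (exact two-sided sign-flip permutation test, p = 0.000244, the smallest that 13 pairs can give, and 0.000977 after Benjamini-Hochberg adjustment over the 4 measures compared). The size of the difference varied widely. In Gm14412 0% of 18 UTR peaks and 73.5% of 2437 other peaks were multi-copy, and in Gm14419 9.09% of 22 and 75.4% of 3656. In Gm13154 the values were 0% and 4.04%, and in Zfp457 0% and 4.35%. In Gm21082 most peaks were multi-copy in UTRs too, 63.6% against 92.9%.

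UTR sequence itself holds few multi-copy windows by this measure, which counts exact copies only. Of 25402 windows of 200 bp, placed at every 1000th base of reachable UTR, 1.90% were multi-copy, against 13.4% of 24281 windows placed at every 100000th base of the other sequence as far from starts. Of all UTR peaks, 24 of 458 (5.24%) were multi-copy and 413 (90.2%) single-copy, against 38.7% and 53.8% of the other peaks as far from starts. How far the make-up of UTR sequence sets the lower multi-copy share of UTR peaks was not tested. When every KRAB-ZFP was held to p under 1e-10 and enrichment over 20, 7 KRAB-ZFPs kept 10 UTR peaks and the difference was -19.8 (exact permutation p = 0.0156, the smallest that 7 pairs can give, and 0.0625 adjusted).

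**Figure D2:**
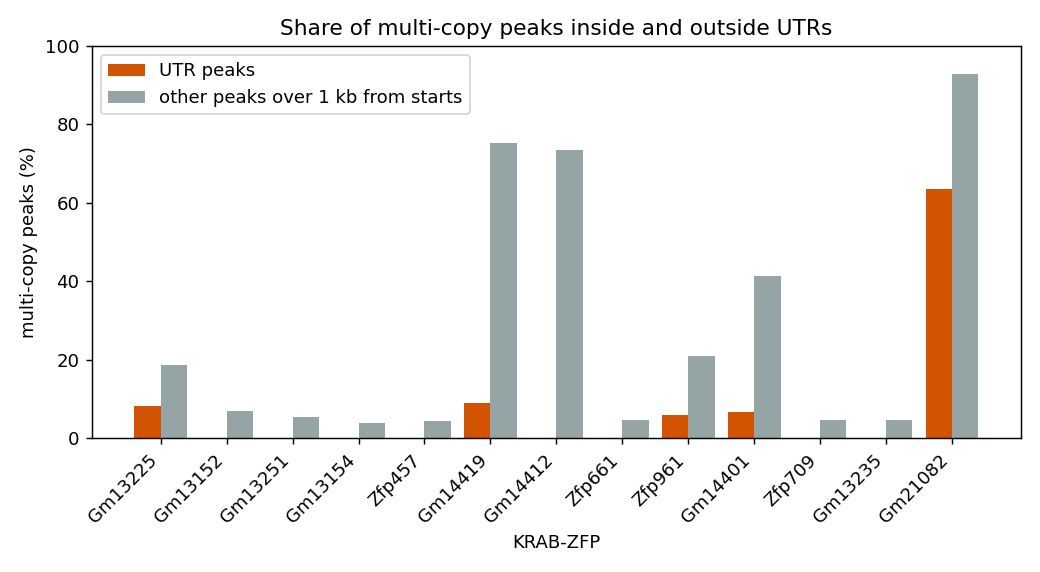
Percent of peaks in multi-copy sequence, for UTR peaks and for the other peaks more than 1 kb from transcript starts, in the 13 KRAB-ZFPs with at least 10 UTR peaks. The bar of UTR peaks is the lower in each KRAB-ZFP, and the gap is widest for Gm14412 (0% against 73.5%) and Gm14419 (9.09% against 75.4%).

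The 24 multi-copy UTR peaks came from 12 KRAB-ZFPs. Gm21082 had 7 of them, in Inadl, Zfp706, Zfp575, Psg23, Slc38a6, A430078G23Rik and 2310061C15Rik. The last of these was also called for Gm13150, with a fold enrichment of 45.65 and 114 tags against 37.22 and 88 tags for Gm21082. Gm13225 had 5, in Mfsd11, Tstd2, Tgfbr2, Cercam and Fbxl18. Gm10845 held 3, for Gm14419 (fold 32.51), Gm14410 (17.05) and Gm4631 (9.60), in windows with a median of 197 to 852 copies. Zfp961 had 1, in Adarb2, a member of the ADAR family of RNA adenosine deaminases, whose window had 108 copies and a fold enrichment of 101.06. Gm13051 had 2, in Cmah (fold 96.89, 10 copies) and Gm14226 (51.86, 15 copies), and the others were 1 each for Gm14401, Gm14406, Zfp600 and Zfp931, a second for Gm14419 in Fmo1, and the Gm13150 peak named above. Reads with several equally good positions were placed at 1 of them by chance, so a call in a multi-copy window cannot be tied firmly to that gene's copy.

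The height, width and base composition of UTR peaks were not shown to differ from those of the other peaks. The median fold enrichment, MACS14's ratio of tags over the local background, differed by -0.07 ± 0.30 on the log2 scale (SD, n = 13, exact sign-flip permutation p = 0.528, adjusted 0.704), with UTR peaks higher in 7 KRAB-ZFPs, lower in 5 and equal in 1. The median called width differed by -0.02 ± 0.11 on the log2 scale (exact permutation p = 0.486, adjusted 0.704). The median GC content differed by 0.173 percentage points ± 3.76 (exact permutation p = 0.891, adjusted 0.891). All 3 means were small beside their spread and turned sign in at least 1 alternative. In Gm14419 the UTR peaks were the weaker, with a median fold of 13.1 against 25.1, and in Gm14412 the values were 27.5 and 33.4. These 2 are also the KRAB-ZFPs with the widest gaps in multi-copy share, and its part in the lower fold was not tested.

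**Figure D3:**
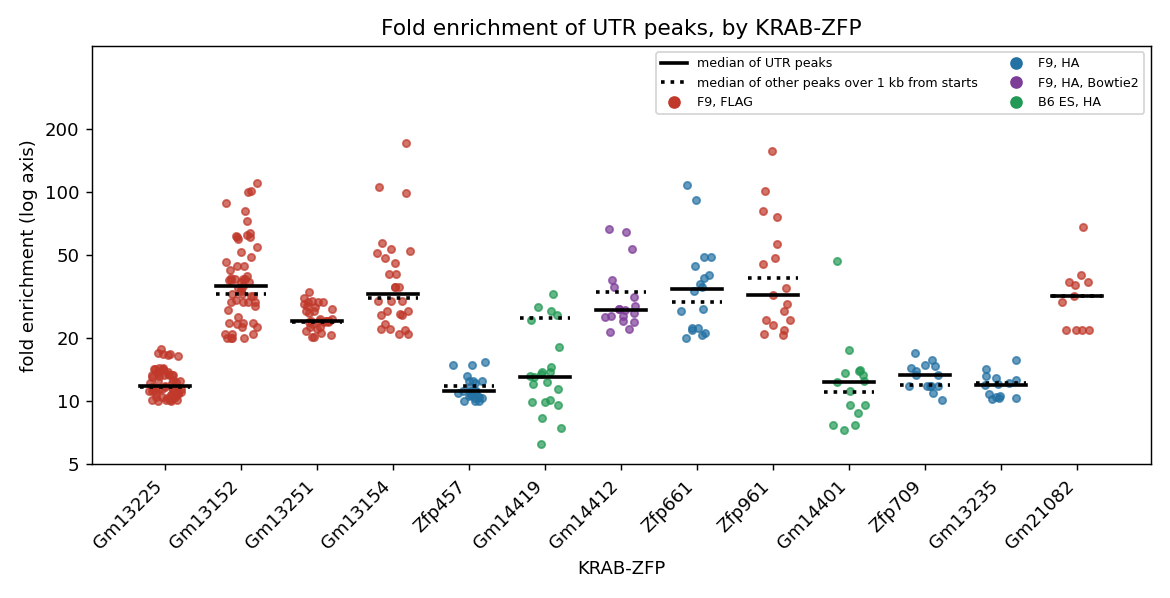
Fold enrichment (log axis) of every UTR peak of the 13 KRAB-ZFPs with at least 10 of them, each point 1 peak coloured by setup, with the median of the UTR peaks (solid line) and of the other peaks more than 1 kb from starts (dotted line). The lines nearly coincide in most KRAB-ZFPs and lie furthest apart in Gm14419 (13.1 against 25.1); the lower edges near 10 or 20 in F9 samples follow the authors' enrichment thresholds.

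The leading words set UTR peaks apart from the sequence beside them. Over the 13 KRAB-ZFPs the word was present in 24.8% of UTR peaks and 4.20% of their flanking windows on average, a difference of 20.6 percentage points ± 19.7 (SD, n = 13). UTR peaks were the higher in 13 of 13 (exact two-sided sign-flip permutation test, p = 0.000244, the smallest possible). In all other peaks the same words averaged 36.1%. The difference was past the threshold with words of 6 bases (22.98, exact permutation p = 0.00439) and of 10 bases (16.2, p = 0.00195, exact). The order did not hold in every KRAB-ZFP then. With 6 bases Gm13235 had 14.3% against 28.6% in flanks, and Zfp709 was equal at 6.67%. With 10 bases Zfp709 was again equal, and Zfp457 and Zfp661 had 0% in both. With single-copy peaks alone, Gm14412 and Gm14419 had 0% against 2.78%. The 8-base word was in only 1 UTR peak each for Zfp457 and Gm14401.

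The words were much rarer in UTR sequence at large for some KRAB-ZFPs than for others. Of the 25402 evenly spaced UTR windows, read on both strands, the word of Zfp961 was in 0.146%, that of Gm13154 in 0.555%, that of Gm13152 in 0.665% and that of Gm21082 in 3.18%. The run of A of Gm13225 was in 9.92%, and that of Gm13251, AAAAAAAG, in 5.90%, against 18.2% (6 of 33) of the Gm13251 UTR peaks. In the remaining KRAB-ZFPs the word was present in at most 3 UTR peaks each. For Zfp457 the word, ACACACAC, was no more frequent than in UTR sequence at large, at 4.17% (1 of 24) of UTR peaks against 4.06% of the evenly spaced windows. Zfp661, with CAAAGCTG in 3 of 18, and Gm14419, with CAGAACTG in 3 of 22, had it in 0 flanking windows. Where the word was present it lay near the summit for the 4 KRAB-ZFPs with a mixed-base word shown above, with a median distance from the window midpoint of 7.5 bp for Gm13152, 11.5 bp for Gm21082, 14.5 bp for Gm13154 and 23.5 bp for Zfp961. It was 38 bp for Gm13225.

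**Figure D4:**
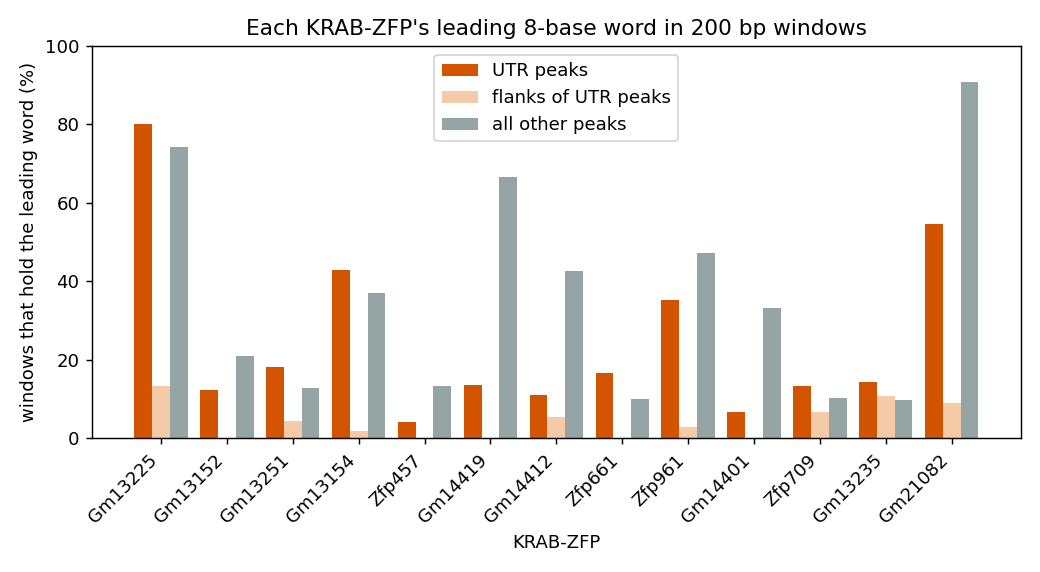
Percent of 200 bp windows that hold each KRAB-ZFP's leading 8-base word on either strand, for its UTR peaks, the windows 1 kb to either side of them and all its other peaks. The word is more frequent in UTR peaks than in their flanks in all 13 KRAB-ZFPs, with the widest gap in Gm13225 (80.0% against 13.3%) and the narrowest in Gm13235 (14.3% against 10.7%).

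Among the 10 KRAB-ZFPs with most UTR peaks, the highest fold enrichments were found for Gm13154, Zfp961, Gm13152 and Zfp661. Outside them Zfp599, with 9 UTR peaks, had 106.44 and 197 tags in Lefty1, which encodes an inhibitor of Nodal signalling, rank 12 of its 697 peaks. For Gm13154, the UTR peak in Rpp14, which encodes a subunit of ribonuclease P, had 289 tags and a fold enrichment of 172.48, rank 4 of its 1561 peaks. It lay 7056 bp from the nearest start at 63.3% of the length of the 3′ UTR. Next came Setd7, a histone H3K4 methyltransferase, with 105.84, and Fbxl16, an F-box protein gene, with 99.31. The fold enrichments of the 28 UTR peaks ranged from 20.91 to 172.48 with a median of 32.7. Hhex, a homeobox gene, had 57.49 and Znrf3, a ubiquitin ligase that removes Wnt receptors, 53.38.

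For Zfp961, Camta1, a calmodulin-binding transcription activator, had 353 tags and a fold enrichment of 158.07, rank 11 of 1457, and Adarb2 and Jph3, which encodes a junctophilin, had 101.06 and 81.62. Csf1, which encodes macrophage colony-stimulating factor, had 34.98. All 3 of the named genes besides Adarb2 had single-copy windows.

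For Gm13152, which had 894 UTR peaks within 1 kb of a start and 57 beyond, the highest values were in Nup160, a nuclear pore gene, with 110.89, Rad1, a subunit of the DNA damage checkpoint clamp, with 101.80, and Scrt2, a zinc finger repressor gene, with 99.98. The Nup160 peak was in a 5′ UTR, 2065 bp from the nearest start. Its 57 UTR peaks had a median fold enrichment of 35.5 (20.0 to 110.89), and their median GC content was 57.5% against 51.5% in its other peaks beyond 1 kb. That was the largest GC rise of the 13 KRAB-ZFPs compared, of which 7 were higher in UTR peaks, 4 lower and 2 equal. The largest fall was in Gm14412, with 53.25% against 62.5%.

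For Zfp661, Hspb8, a small heat shock protein gene, had 107.68 and 244 tags, rank 19 of 1065. Mmp28, a matrix metalloproteinase gene, had 91.49, and Wdfy3, which encodes an autophagy adaptor, 49.04. For Gm14412 the first were Dact3, a regulator of Wnt signalling, with 66.76, Lrrc4b, a synaptic adhesion gene, with 64.34, and Cdk4, the cyclin D-dependent kinase, with 53.68. The Cdk4 peak lay 1001 bp from a transcript start and was the UTR peak nearest the limit of the rule. Just inside the limit followed Gm10305 and Mafa, both for Gm14419, at 1030 and 1078 bp, with fold enrichments of 6.27 and 9.62. The reachable UTR of Mafa is only 3 bp long and may be a stop codon, so most of that window lay outside it. Just outside lay Zic1 (Gm14419, 981 bp, fold 8.11), Stox2 (Gm13152, 941 bp, 23.63) and Ins1 (Gm13225, 923 bp, 10.41).

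Gm13225 had its highest UTR values in Zfp697 (17.74), Gcnt3 (16.96) and Mfsd11 (16.80), and its 60 ranged from 10.08 to 17.74. Its called peaks were wide, with a median of 2160 bp over UTR peaks. In 2 of them the called peak, though not the window, held a transcript start, which was so for no UTR peak of another KRAB-ZFP. Gm13251 had 33.36 in Cyfip2, 31.18 in Zfp334 and 30.25 in Gcnt3. Zfp457 had 15.40 in Mast4, a kinase gene, and 15.01 in both Rtn1, a reticulon gene, and Sh3rf2, a RING finger ubiquitin ligase gene. In ES cells, Gm14419 had 32.51 in Gm10845, 28.40 in Hspa12b and 27.09 in Pan3, and its best UTR peak ranked 1339 of 3906. Gm14401 had 47.02 in 2810432D09Rik, rank 4 of 1541, then 17.62 in Cog1, a Golgi complex gene, and 14.11 in Lyl1, a blood cell transcription factor gene. The deposited false discovery rates of these Gm14401 peaks were high, at 42.86%, 16.35% and 11.81% in that order. For the Zfp457 peak in Mast4 it was 8.06%.

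Over all 458 UTR peaks the fold enrichment ran from 2.32 to 172.48 with a median of 21.6, and the tags from 7 to 487 with a median of 49.5. The deposited false discovery rate had a median of 0.225%, but it was above 5% in 72 UTR peaks and 100% in 9. At p under 1e-10 and enrichment over 20, 255 UTR peaks (55.7%) remained, in 243 genes. Of the Gm13225 UTR peaks 0 of 60 met these settings, of the Zfp457 ones 0 of 24, and of the Gm13251 and Gm13154 ones all 33 and all 28. Over all their peaks, 26 of 3570 met them for Gm13225 and 12 of 1812 for Zfp457. For Gm13251 3299 of 3300 did, and for Gm13154 1560 of 1561. The counts in UTRs thus followed those of each KRAB-ZFP's peaks as a whole.

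Along the 3′ UTR the peaks showed no preferred part. From the stop codon side, 153, 153 and 142 of the 448 peaks lay in its first, middle and last part of equal length, or 34.2%, 34.2% and 31.7%, and the median position was 49.9% of the UTR length. The median distance to the UTR's end was 890 bp and the median UTR was 1978 bp long. The median position ranged from 25.9% in Gm14412 and 32.4% in Gm14419 to 62.4% in Zfp457 among the 13 KRAB-ZFPs with at least 10 UTR peaks. In 56 peaks the midpoint also lay within another annotated gene, in 5 it lay in UTRs of more than 1 gene, and in 3 these were on both strands.

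Genes with more UTR sequence held UTR peaks more often. Of the 19520 genes with UTR sequence that the rule can reach, 405 (2.07%) held at least 1 UTR peak. This share was 0.456% among 7013 genes with up to 500 bp of reachable UTR, 2.52% among 4397 with over 1000 up to 2000 bp, and 7.18% among 1058 with over 4000 bp. Per Mb of reachable UTR the order was the other way, from 21.8 peaks in the shortest class to 15.5 in the longest, against 18.04 over all reachable UTR and 20.7 peaks of any kind per Mb of genome.

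**Figure D5:**
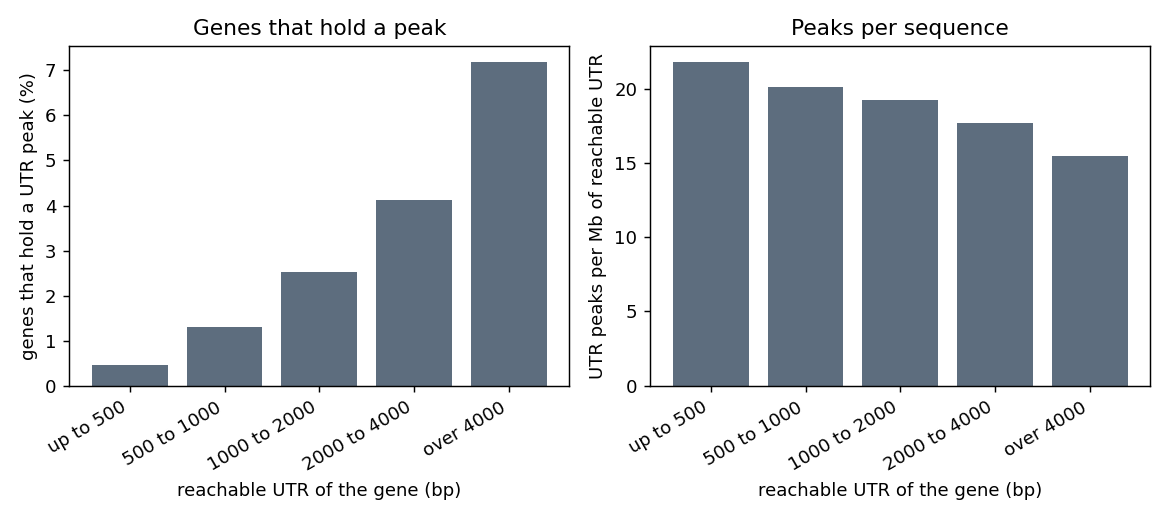
Genes grouped by the length of UTR that the rule can reach (bp): the left panel gives the percent of genes in each class that hold a UTR peak, the right panel the UTR peaks per Mb of reachable UTR. The left bars rise from 0.456% to 7.18%, and the right bars fall from 21.8 to 15.5 per Mb.

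Gene groups were read against that 2.07%, and no test was made over a group. No gene of 3 lists held a UTR peak, namely 31 genes of the KAP1 silencing machinery, 25 of the pluripotency network and 38 imprinted genes. At the share of all genes, fewer than 1 gene would be counted in each list, so these lists are too short to show a difference. Among 418 zinc finger genes, 18 (4.31%) held 21 UTR peaks, and their reachable UTR held 30.4 peaks per Mb. The median reachable UTR of the 418 was 1127 bp, against 848 bp over all genes. Zfp458 had 4 UTR peaks, and 3 lay in zinc finger genes, namely Zfp599 (fold 16.73, 80 tags), Zfp187 (12.27) and Zfp691 (11.53), which was noticed after the values were seen. Zfp599 itself is one of the KRAB-ZFPs assayed. So are Zfp46, which held a Gm13152 peak (39.99), and Zfp595, which held a Zfp961 peak (24.62). Zbtb39 for Gm21082 had the highest fold of the group, 68.04 with 104 tags, rank 19 of 2211. Zbtb5, a BTB zinc finger gene, held peaks of Gm13251 (29.91), Gm13145 (21.43) and Gm13225 (10.18).

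Among 32 regulators of microRNAs and 3′ UTRs, 5 (15.6%) held a UTR peak, each 1 peak of 1 KRAB-ZFP. Pan3, a subunit of the PAN deadenylase, held a Gm14419 peak with a fold of 27.09, 6 bp into its 3′ UTR. Upf1, the helicase of nonsense-mediated decay, held a Gm14412 peak with 26.54, Zfp36l2, a protein of AU-rich elements, a Gm14419 peak with 12.16, Cnot6l, a CCR4-NOT deadenylase, a Zkscan17 peak with 11.71, and Eif2c3, which encodes an Argonaute protein, a Gm14401 peak with 9.61. The reachable UTRs of the 32 genes have a median of 1971 bp against 848 bp over all genes. Per Mb of reachable UTR they held 54.0 UTR peaks against 18.04 over all, which rests on 5 peaks and was not tested. By fold enrichment the 5 peaks stood between 44.8% and 77.8% of the way down the peaks of their KRAB-ZFP.

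Among 68 genes of the Wnt, Fgf, Bmp, Gdf, Tgfb, inhibin beta, Nodal and hedgehog ligands, 4 (5.88%) held one. The Wnt ligand gene Wnt10a held a Gm13152 peak with a fold of 63.62 and 249 tags. Its neighbour Wnt6, also for Gm13152, held one with 38.17. The midpoint of the Wnt6 peak was base 1 of the annotated 3′ UTR, which may belong to the stop codon. Wnt8b held a Gm13150 peak with 56.45 and 190 tags, rank 9 of 98, and Bmp2, a bone morphogenetic protein gene, a Gm13251 peak with 24.05. Of 40 Hox genes, Hoxc10 (2.50%) held 2, for Gm13251 (24.78, 85 tags) and Zfp935 (10.21, 34 tags). Of 48 ribosomal protein genes 2 (4.17%) did, Rps15a for Zfp58 (38.40) and Rpl13a for Zfp599 (23.71), in a window that is also UTR of Flt3l. Per Mb of reachable UTR the ligand genes held 44.4 UTR peaks, the Hox genes 51.9 and the ribosomal protein genes 98.3, against 18.04 over all. These values rest on 4, 2 and 2 peaks.

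Some UTR sites were called for several KRAB-ZFPs. Windows that overlapped by at least 50 bp were merged, and the 458 peaks then formed 401 sites of 1 KRAB-ZFP, 16 of 2, 3 of 3 and 4 of 4. The share of UTR peaks whose window overlapped a peak of any other KRAB-ZFP was 13.1% (60 of 458, interval 10.3% to 16.5%), against 13.8% of all peaks and 13.9% of the other peaks more than 1 kb from starts. By setup, it was 24.8% of UTR peaks and 29.4% of the other peaks for HA in F9 cells, and 8.07% and 10.3% for FLAG. Among single-copy peaks alone the UTR share was the lower, 12.1% (50 of 413, interval 9.30% to 15.6%) against 17.9% of 25078 other peaks. Within setups the single-copy values were 23.5% and 29.5% for HA in F9 cells, 7.54% and 11.5% for FLAG, 2.94% and 17.4% for HA mapped with Bowtie2, and 6.25% and 2.48% in ES cells, where the order was the other way. The single-copy Bowtie2 and ES shares of UTR peaks rest on 1 of 34 and 3 of 48. Their intervals were 0.521% to 14.9% and 2.15% to 16.8%, and that of ES cells held the 2.48% of the other peaks. No test was made of these shares.

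The 4 sites of 4 KRAB-ZFPs were all single-copy and mostly from HA samples in F9 cells. The first lies in the 3′ UTR of Cyfip2, a subunit of the WAVE complex that regulates actin, at chr11:46050774-46051002, and was called for Gm13251 (fold 33.36, 79 tags), Zfp759 (25.32, 44 tags), Zfp953 (24.06, 48 tags) and Zfp709 (13.92, 23 tags). Their midpoints lay within 30 bp of each other, at 69.7% to 71.4% of the UTR. A Gm13225 window (fold 11.90, called width 2397 bp) overlapped this site by less than the 50 bp needed for merging, so the UTR of Cyfip2 held peaks of 5 KRAB-ZFPs.

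The second was in Gpn1, which encodes a GTPase linked to RNA polymerase II assembly, at chr5:31814796-31815016, for Zfp874b (20.21), Gm13235 (12.73), Zfp457 (12.19) and Zfp709 (11.84). The third was in Cyp2b23, a cytochrome P450 gene, at chr7:27450423-27450745, for Zfp759 (20.57), Zkscan17 (13.69), Gm13235 (12.25) and Zfp457 (11.26). The fourth was in Sh3rf2, for Gm13145 and Zfp759 and, as a weaker pair, Zfp457 and Zfp709. Zfp457, Zfp709, Gm13235 and Zkscan17, which recur among these sites, were called at looser settings, and 12 of 1812, 16 of 1223, 13 of 1791 and 18 of 1107 of their peaks met p under 1e-10 and enrichment over 20. The part of those settings in the shared calls was not tested.

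Of the 3 sites of 3 KRAB-ZFPs, 1700019D03Rik was called for Gm30910 with a fold of 54.75 and 108 tags, rank 13 of its 64 peaks, and for Zkscan17 (12.01) and Zfp933 (10.12). 1700049G17Rik was called for Zfp709 (11.88), Gm13225 (11.76) and Zfp457 (11.26), and Gm10845 was described above. Gm13225 and Gm13251 met at Gcnt3, a glycosyltransferase gene, and at Rnf152, and Gm13152 and Zfp661 at Zbtb7b, with fold enrichments of 46.35 and 22.56. Palm2 held peaks of Gm13152, Gm14401 and Zfp493 at separate places.

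Among KRAB-ZFPs with few UTR peaks but a high share, the 5 of Gm13150 were in Wnt8b (56.45), 2310061C15Rik (45.65), Rreb1 (41.40), Ghitm (33.87) and Zmynd8 (29.03). The 3 of EtOHi1 were in Tmem150b (41.43), Meox1, a homeobox gene (20.68), and Shank1, a postsynaptic scaffold gene (11.77).

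The tags inside UTR peaks summed to between 9 and 6636 per KRAB-ZFP with a UTR peak. Library depth is unknown here, so a UTR without a peak is not shown to be unbound.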

How the data were processed

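ChIP-seq peaks of 67 KRAB-ZFPs were taken from 1 table. Per the labels, the authors mapped reads with Bowtie or Bowtie2 to mm9, called peaks per sample with MACS 1.4.2 and deposited 200 bp windows, as positions in base pairs. They also deposited tags (raw count), called width, summit offset, a score (10 times −log10 of the p-value), fold enrichment (a ratio) and false discovery rate (percent). Thresholds differed between samples. Of 68 names, 1 (244 peaks, 2 in UTRs) matched no label and was not used, and 1 labelled KRAB-ZFP matched no name and was not analysed here.

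Midpoints were placed in gencode vM1 on NCBIM37, the assembly named mm9, counted from 1. Coding sequence was masked, while stop codons, which are annotated separately, were not. Exact 24-base copy numbers covered both strands. KRAB-ZFPs, not peaks, were the units of all permutation tests (100000 resamples, or exact; Python 3.11.15, NumPy 2.4.6), which were tested on simulated data. Intervals are 95% Wilson intervals.

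The rule, lists and tests were chosen with earlier results of these data known. Named were the 3 UTR peaks of highest fold for each of the 10 KRAB-ZFPs with most, genes and merged sites with most KRAB-ZFPs, list genes (up to 5 a list) and peaks nearest 1 kb. Further genes were chosen once values were known. The evenly spaced windows, leave-one-out fits and 2 further settings were also added then.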

Additional observations from a re-analysis of the deposited data

Results flagged for a closer look

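The share of UTR peaks of EtOHi1, 4.48% (3 of 67 peaks), stood apart from the other 9 KRAB-ZFPs with an HA tag mapped with Bowtie2, by Dixon's criterion at the 95% level. Chance alone would set about 1 group in 20 apart in this way, and the interval of this share runs from 1.53% to 12.4%. The other groups within the size limits of this criterion, the 9 KRAB-ZFPs in ES cells, had none.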

How the results depend on the processing

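Leave-one-out fits aside, 49 of 61 recomputed values kept their direction and call, or for counts stayed within 1.5 times. The others follow. The mean difference between the UTR share of peaks and of the genome turned positive at p under 1e-10 and enrichment over 20 (0.0102 percentage points), with single-copy peaks only (0.262) and, added after seeing the data, without the 4 KRAB-ZFPs whose median false discovery rate was 100% (0.0140). Leaving out each KRAB-ZFP in turn it ran from -0.0747 to 0.00264. The GC difference turned negative with at least 5 UTR peaks (-0.237), without Gm13152 (-0.312) and at the strict settings (-0.357), and ran from -0.312 to 0.958 in the leave-one-out fits. The width difference turned positive at the strict settings (0.0278 on the log2 scale) and with single-copy peaks (0.000174), and the fold difference with single-copy peaks (0.00369), running from -0.0916 to 0.00349 (log2) leave-one-out. None of these passed the threshold under any setting. The strict settings gave 255 UTR peaks in 243 genes, and a multi-copy difference of -19.8 that no longer passed after adjustment, since 7 KRAB-ZFPs entered. The multi-copy and word differences ran from -21.7 to -15.9 and from 16.8 to 22.1 leave-one-out, each past the threshold. A summit alternative was not run, because the window midpoint is the summit. No paired analysis was possible because each KRAB-ZFP has 1 sample, if pairing is by replicate number; the comparisons within KRAB-ZFPs pair its UTR peaks with its other peaks or flanks.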
